A study of Mus musculus with 15 samples.

Results

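NRF2, encoded by Nfe2l2, is the transcription factor that switches on much of the antioxidant and detoxification programme of a cell. The gene set described here holds 10 genes, chosen by symbol: Nfe2l2 itself, Hmox1, Nqo1, Gclc, Gclm, Txnrd1, Srxn1, Sod2, Cat and Gpx3. The choice was made with earlier results of these data known. All 10 were found among the 47643 gene symbols of the expression table, and all 10 were among the 11923 genes kept for testing, with at least 1 TPM (a transcript abundance corrected for length and scaled to a fixed sum per library) in 15 of 15 libraries. Expression was measured by poly(A) RNA sequencing of the tibialis anterior, a fast-fibred muscle of the shin, in female C57BL/6J mice with a labelled age of 7 weeks. The 4 groups were control (mock-injected, 4 libraries), lisinopril (3 libraries, the drug and no tumour), melanoma (4 libraries, a tumour that induces cachexia, the wasting of body mass in cancer) and melanoma plus lisinopril (4 libraries). By the design text, muscle was taken 49 days after implantation or mock injection of a melanoma. The extraction protocol in the labels refers instead to 3 weeks after injection of LLC cells, so the sources differ on both the time and the tumour; the group names here follow the treatment labels and the design text. Lisinopril is an inhibitor of angiotensin-converting enzyme, used to lower blood pressure. The sources used here name neither the melanoma line, its species of origin, the drug dose and the length of treatment nor the point in the experiment to which the age refers, and the design text calls the tumour a xenograft. No allele or transgene is named for the hosts. The labels call the libraries biological replicates without giving litters or cages.

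In resting cells the adaptor KEAP1 holds NRF2 and hands it to a CUL3 ubiquitin ligase for degradation. Oxidants and electrophiles modify KEAP1, NRF2 then accumulates, enters the nucleus with a small MAF partner and binds antioxidant response elements, where the haem-regulated repressor BACH1 competes for the same sites. Its targets supply glutathione, recycle thioredoxin, break down haem and reduce quinones. Muscle fibres generate superoxide during contraction and in their mitochondria, and superoxide dismutases, catalase and glutathione peroxidases dispose of it and of the peroxide it gives.

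The sequences just before the starts of 5 transcripts are shown because the core of the antioxidant response element, TGACNNNGC on either strand, is the site through which NRF2 is known to act. The RefSeq promoter table (GRCm38.p6, the assembly also called mm10) held 8 of the 10 genes, with 10 windows of 300 bases each, 250 before to 50 after a transcript start. The core occurred in 4 of these windows, those of Nfe2l2, Gclm, Srxn1 and the second of 3 Txnrd1 starts. It occurred in 12.4% of all 32851 mouse windows of that length and in 14.5% of the 11530 windows of the kept genes. The 250 bases before the start are given 5′ to 3′ on the strand of the gene, with capitals marking the antioxidant response element core and the AP-1 site TGANTCA, a motif found in 7.81% of all windows that resembles the element. The intervals are chr2:75704664-75704913 on the minus strand for Nfe2l2, chr3:122245307-122245556 on the plus strand for Gclm, chr10:82858956-82859205 on the plus strand for the second Txnrd1 start, chr2:152105274-152105523 on the plus strand for Srxn1 and chr8:107403206-107403455 on the minus strand for Nqo1.
Nfe2l2: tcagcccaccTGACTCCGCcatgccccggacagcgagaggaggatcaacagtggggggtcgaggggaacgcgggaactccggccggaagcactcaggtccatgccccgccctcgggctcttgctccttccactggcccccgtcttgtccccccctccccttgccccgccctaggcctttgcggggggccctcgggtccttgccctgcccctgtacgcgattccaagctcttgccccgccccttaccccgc
Gclm: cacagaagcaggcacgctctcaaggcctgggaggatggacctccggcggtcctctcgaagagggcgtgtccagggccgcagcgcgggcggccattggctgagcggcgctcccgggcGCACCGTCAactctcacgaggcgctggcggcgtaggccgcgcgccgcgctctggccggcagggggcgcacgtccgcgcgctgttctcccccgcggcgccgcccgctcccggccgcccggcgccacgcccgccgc
Txnrd1, second start: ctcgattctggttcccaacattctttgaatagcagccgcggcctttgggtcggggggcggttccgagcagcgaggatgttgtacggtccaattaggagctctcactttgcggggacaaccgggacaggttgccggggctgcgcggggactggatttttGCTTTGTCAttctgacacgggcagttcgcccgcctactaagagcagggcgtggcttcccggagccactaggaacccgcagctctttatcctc
Srxn1: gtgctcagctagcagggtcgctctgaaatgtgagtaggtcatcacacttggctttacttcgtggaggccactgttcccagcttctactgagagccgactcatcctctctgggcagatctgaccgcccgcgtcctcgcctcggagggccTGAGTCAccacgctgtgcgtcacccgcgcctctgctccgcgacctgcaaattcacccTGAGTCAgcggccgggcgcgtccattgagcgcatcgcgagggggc
Nqo1: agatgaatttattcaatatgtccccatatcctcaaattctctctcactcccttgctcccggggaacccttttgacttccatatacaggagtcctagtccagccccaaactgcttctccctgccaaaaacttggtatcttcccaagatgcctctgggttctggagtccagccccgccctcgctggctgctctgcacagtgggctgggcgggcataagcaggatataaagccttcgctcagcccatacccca
The Nfe2l2 core began 240 bases before the start on the strand of the gene. The Gclm match lay on the opposite strand, 134 bases before the start, and the Txnrd1 match lay on the opposite strand at 92 bases. In Srxn1 the core lay on the opposite strand 28 bases after the start, outside the printed stretch, and its AP-1 sites began at 102 and 45 bases before it. The nearer of these extends to TGANTCAGC, a form bound by NF-E2-type factors and present in 1.19% of all windows. The Nqo1 window held none of the 5 motifs searched, which says only that these letters are not in these bases. The other motifs were the STAT form TTCNNNGAA (8.30% of windows), matched at the second and the third Txnrd1 starts and at Sod2, and the FOXO form TGTTTAC (3.65% of windows), matched in none of the windows of the 8 genes. TPM are summed per gene, so the Txnrd1 start in use cannot be told from these values.

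The labelled tissue was checked against 8 skeletal muscle fibre genes, among them Acta1 and Ckm, whose summed level lay between 62500 and 127480 TPM in every library. Between 10530 and 12363 genes reached 1 TPM per library, and the share of TPM from mitochondrially encoded transcripts ran from 28.5 to 52.8%. TPM sum to a fixed total and keep no sequencing depth, so counting error and detection limits are unknown. A pair of libraries stood apart before any test: the mean correlation with the rest of the own group was 0.937 for control 2 and 0.938 for melanoma 2, against at least 0.965 for the other libraries. Control 2 also held 23878 TPM of haemoglobin transcripts, against at most 4197 in any other library. Results below are given with and without control 2 where that library moved them.

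Among the tumour-free controls the genes spanned a wide range of levels per transcript length. Sod2 had the highest median control level (216 TPM), followed by Gpx3 (169 TPM) and Cat (93.1 TPM), and the control ranges of these neighbours overlapped. Txnrd1 stood at 43.8 TPM, and its range was separate from that of Cat above it and from that of Srxn1 below it (23.0 TPM). Nfe2l2 (20.8 TPM), Nqo1 (16.3 TPM), Gclc (6.52 TPM), Hmox1 (4.79 TPM) and Gclm (3.57 TPM) followed, each with a control range that overlapped that of its neighbour in the order.

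The question put first was whether muscle of tumour-bearing mice differed from that of tumour-free mice, averaged over untreated and lisinopril-treated arms. Nfe2l2 and 4 others of the 10 genes rose: Hmox1, Gclm, Txnrd1 and Gpx3, by 1.73-fold (Txnrd1) to 3.85-fold (Gpx3). Gclc, Srxn1 and Sod2 missed the threshold, with adjusted p of 0.0568, 0.0702 and 0.0518 (limma, Benjamini-Hochberg over all kept genes), and Nqo1 and Cat lay near 0. The 5 of 10 genes called higher compare with 14.5% of all kept genes called higher. The count called lower was 0 of 10, against 3.45% of all kept genes. Of the 10, 8 had an unadjusted p under 0.05 (limma). The 10 genes were chosen with earlier results of these data known, so these shares are not an independent test of the set. The median log2 fold change was 0.80 over the 10 genes and 0.17 over all 11923 kept genes. Without control 2 the count of genes past the threshold was 8 (7 higher and Sod2 lower), and of all kept genes 33.2% were then called, 28.0% higher and 5.23% lower. The direction of change over all genes depended on the scaling: 1730 were called higher and 411 lower, against 1107 and 1261 after median-ratio rescaling, 1176 and 1174 after quantile normalization, and 1281 and 827 without mitochondrial genes. Of the 10 genes, 4 were then called higher (Nfe2l2, Hmox1, Txnrd1 and Gpx3) and 1 lower (Sod2) under each of these 3 scalings. In whole-muscle RNA, more transcript per cell and more cells of a type that expresses the gene cannot be told apart.

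**Figure D1:**
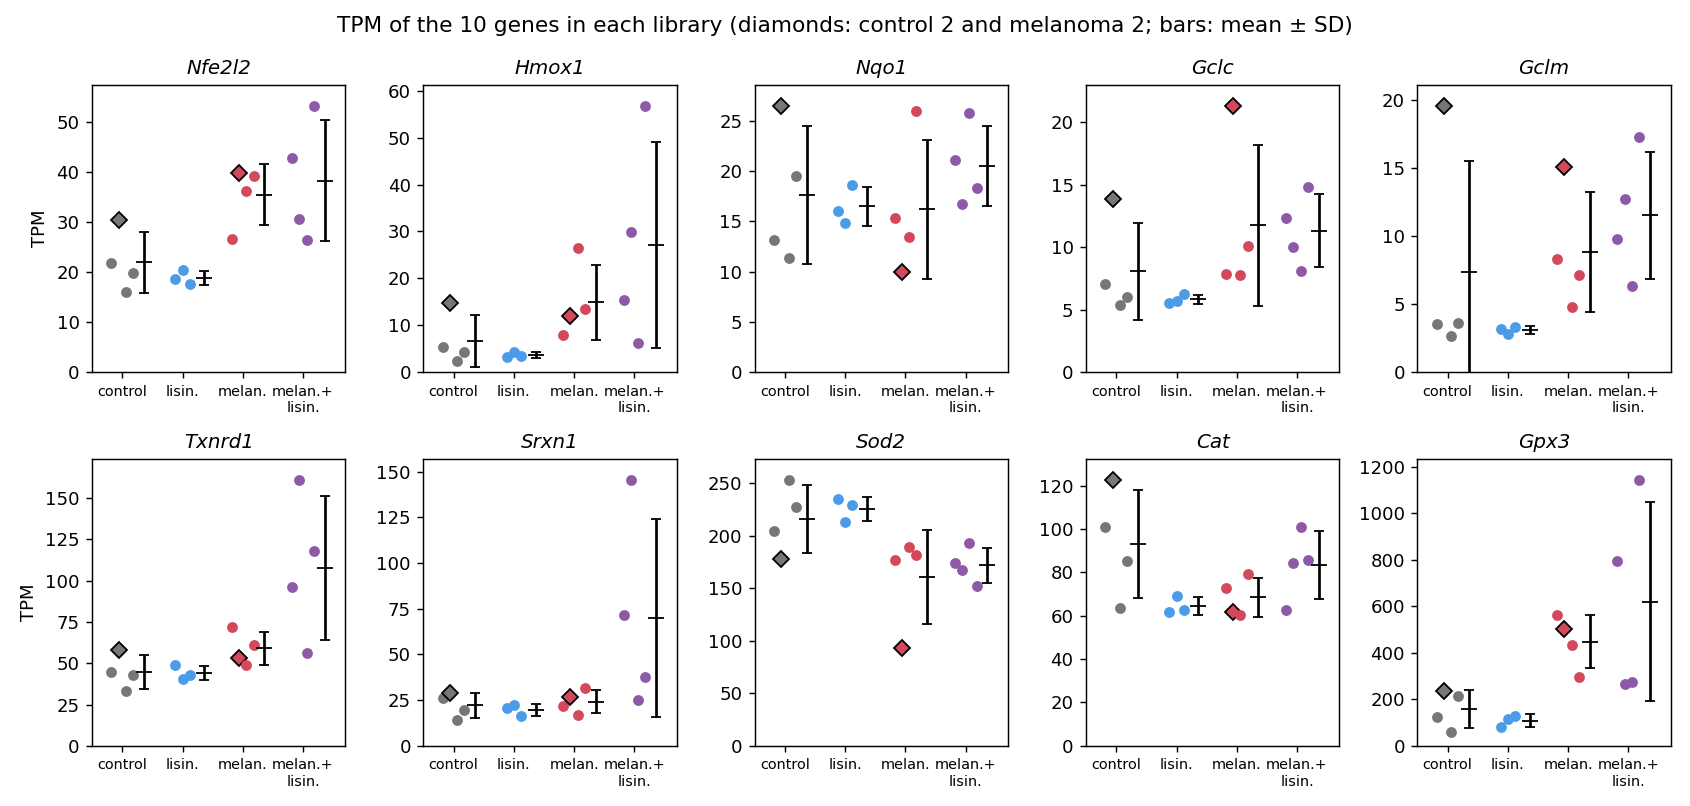
TPM of each of the 10 genes (vertical axes, linear, each starting at 0) in every library of the control, lisinopril, melanoma and melanoma plus lisinopril groups; points are libraries, diamonds mark control 2 and melanoma 2, and bars give the mean ± SD (n = 4, 3, 4 and 4), with the lower Gclm control bar cut off at 0. Nfe2l2 lay at 26.3 to 53.1 TPM in the 8 tumour-bearing libraries and at 15.9 to 30.3 TPM in the 7 tumour-free ones, while the Nqo1 groups overlapped throughout.

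Nfe2l2, the regulator itself, lies at chr2:75675513-75704641 (GENCODE M21, GRCm38). Its level was 21.7, 30.3, 15.9 and 19.9 TPM in controls 1 to 4, and 18.5, 20.3 and 17.5 TPM in lisinopril 1 to 3. In melanoma 1 to 4 it was 26.6, 39.8, 36.2 and 39.1 TPM, and in melanoma plus lisinopril 1 to 4 it was 42.8, 30.6, 26.3 and 53.1 TPM. All 8 tumour-bearing libraries exceeded every tumour-free library except control 2, and 6 of the 8 exceeded control 2 as well; melanoma 1 and melanoma plus lisinopril 3 did not. The average tumour effect was a log2 fold change of 0.81 ± 0.17 (SE), or 1.76-fold (adjusted p = 0.00747, limma). It was 0.89 ± 0.16 without control 2 and remained past the threshold in all 23 alternative analyses, between 0.61 and 0.89. All fold changes here are on the log2(TPM + 1) scale, which understates the change of genes at a few TPM.

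Hmox1 (chr8:75093621-75100589) encodes haem oxygenase 1, the inducible enzyme that splits haem into biliverdin, carbon monoxide and iron. Controls 1 to 4 held 5.30, 14.7, 2.39 and 4.27 TPM, and lisinopril 1 to 3 held 3.14, 4.35 and 3.34 TPM. Melanoma 1 to 4 held 7.85, 12.0, 26.4 and 13.5 TPM, and melanoma plus lisinopril 1 to 4 held 15.5, 29.9, 6.27 and 56.7 TPM. Control 2 was again the exception among the tumour-free libraries: 4 of 8 tumour-bearing libraries lay above it, and 8 of 8 lay above the other 6. The highest level was 6.17-fold the lowest within the control group, 1.39-fold within lisinopril, 3.37-fold within melanoma and 9.04-fold within melanoma plus lisinopril. Averaged over both arms the tumour effect was 1.70 ± 0.41, or 3.25-fold (adjusted p = 0.0165, limma), and 1.91 ± 0.38 without control 2; it remained past the threshold in all 23 alternatives.

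Gclc and Gclm encode the catalytic and modifier subunits of glutamate-cysteine ligase, the rate-limiting step of glutathione synthesis. Gclc (chr9:77754535-77794485) measured 7.03, 13.8, 5.34 and 6.01 TPM in controls 1 to 4 and 5.50, 5.71 and 6.22 TPM in lisinopril 1 to 3. It measured 7.86, 21.3, 7.78 and 10.1 TPM in melanoma 1 to 4 and 12.4, 9.98, 8.12 and 14.8 TPM in melanoma plus lisinopril 1 to 4. Melanoma 2 had the highest level of all libraries and control 2 the highest of the tumour-free ones, so the sides overlapped, and the average tumour effect of 0.65 ± 0.22 did not pass (adjusted p = 0.0568, limma). It was 0.78 ± 0.20 (adjusted p = 0.0121, limma) without control 2, and it also passed without melanoma plus lisinopril 3 (adjusted p = 0.0475).

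Gclm (chr3:122245557-122270732) measured 3.51, 19.5, 2.65 and 3.64 TPM in controls 1 to 4 and 3.18, 2.78 and 3.31 TPM in lisinopril 1 to 3. Melanoma 1 to 4 held 8.33, 15.04, 4.81 and 7.09 TPM, and melanoma plus lisinopril 1 to 4 held 9.76, 12.7, 6.29 and 17.3 TPM. Control 2 had the highest Gclm level of all 15 libraries, and the other 6 tumour-free libraries lay below all 8 tumour-bearing ones. The average tumour effect was 1.04 ± 0.34, or 2.06-fold (adjusted p = 0.0477, limma), and 1.32 ± 0.22 (adjusted p = 0.00164, limma) without control 2. This call was close to the threshold and was kept in 8 of 23 alternatives. It was lost with median-ratio rescaling, quantile normalization, no filter and without mitochondrial genes. It was also lost on leaving out any 1 of 11 libraries (controls 1, 3 and 4, lisinopril 1, 2 and 3, melanoma 1 and 2, and melanoma plus lisinopril 1, 2 and 4), with adjusted p up to 0.0960 (limma). Its exons overlap 2 other annotated genes, Gm17494 on the opposite strand and the pseudogene Gm6061. The table listed them at no more than 0.0527 TPM and at 0. How reads they share with Gclm were assigned is not known.

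Txnrd1 and Srxn1 encode thioredoxin reductase 1, which keeps cytosolic thioredoxin reduced, and sulfiredoxin, which rescues over-oxidised peroxiredoxins. Txnrd1 (chr10:82833951-82897712) measured 44.8, 58.2, 33.3 and 42.7 TPM in controls 1 to 4 and 48.9, 40.4 and 42.6 TPM in lisinopril 1 to 3. It measured 72.0, 53.4, 49.2 and 61.2 TPM in melanoma 1 to 4 and 96.2, 161, 56.2 and 118 TPM in melanoma plus lisinopril 1 to 4. The highest 3 values were all from mice with both tumour and drug, and 5 of 8 tumour-bearing libraries exceeded every tumour-free one. Tumour-bearing muscle held more by 0.79 ± 0.19 on average, or 1.73-fold (adjusted p = 0.0158, limma), and 0.86 ± 0.19 without control 2; it remained past the threshold in all 23 alternatives.

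Srxn1 (chr2:152105516-152111376) measured 26.1, 29.2, 13.9 and 19.8 TPM in controls 1 to 4 and 20.8, 22.3 and 16.2 TPM in lisinopril 1 to 3. Melanoma 1 to 4 held 21.5, 26.8, 17.0 and 31.6 TPM, and melanoma plus lisinopril 1 to 4 held 71.7, 146, 25.0 and 37.6 TPM. The melanoma values lay within or just above the control range, and melanoma plus lisinopril 1 and 2 lay far above it. On average the tumour effect was 0.80 ± 0.30 (adjusted p = 0.0702, limma). It passed without control 2 (0.87 ± 0.31, adjusted p = 0.0459) and without melanoma plus lisinopril 3 (adjusted p = 0.0231).

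Nqo1 (chr8:107388225-107403206) encodes the quinone reductase that is commonly used as a marker of NRF2 activity. It measured 13.1, 26.5, 11.3 and 19.5 TPM in controls 1 to 4 and 16.0, 14.8 and 18.6 TPM in lisinopril 1 to 3. Melanoma 1 to 4 held 15.3, 9.93, 13.5 and 26.0 TPM, and melanoma plus lisinopril 1 to 4 held 21.1, 16.7, 25.8 and 18.3 TPM. No tumour-bearing library exceeded control 2, and melanoma 2, which had the most Gclc, had the least Nqo1. Averaged over both arms the difference was 0.08 ± 0.20, with a 95% interval of -0.35 to 0.51 (adjusted p = 0.788, limma), and its sign turned under both median-ratio rescaling and quantile normalization.

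Sod2, Cat and Gpx3 remove superoxide and peroxide. Sod2 (chr17:13006846-13040063), the manganese superoxide dismutase of mitochondria, measured 204, 178, 253 and 228 TPM in controls 1 to 4 and 235, 213 and 229 TPM in lisinopril 1 to 3. It measured 177, 93.5, 190 and 182 TPM in melanoma 1 to 4 and 174, 167, 193 and 152 TPM in melanoma plus lisinopril 1 to 4. Of the 8 tumour-bearing libraries 5 lay below every tumour-free one, and 8 of 8 did so once control 2 was left out. The average tumour effect was -0.43 ± 0.15 (adjusted p = 0.0518, limma) and lay just outside the threshold. It passed on leaving out control 2 (-0.48 ± 0.15, adjusted p = 0.0283), melanoma 2 (adjusted p = 0.0397), melanoma 3 (adjusted p = 0.0453) or melanoma 4 (adjusted p = 0.0417), and after quantile normalization (adjusted p = 0.0396) or median-ratio rescaling (adjusted p = 0.0403, limma).

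Cat (chr2:103453849-103485160), the peroxisomal catalase, measured 101, 123, 63.4 and 85.2 TPM in controls 1 to 4 and 61.7, 69.2 and 62.5 TPM in lisinopril 1 to 3. It measured 72.6, 61.6, 60.3 and 79.4 TPM in melanoma 1 to 4 and 62.6, 84.3, 101 and 86.0 TPM in melanoma plus lisinopril 1 to 4. All 4 groups overlapped, and the average tumour effect was -0.03 ± 0.14, with a 95% interval of -0.33 to 0.27 (adjusted p = 0.898, limma).

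Gpx3 (chr11:54902453-54910377), a secreted selenium-dependent glutathione peroxidase, was separated between tumour-bearing and tumour-free libraries. It measured 125, 234, 60.5 and 213 TPM in controls 1 to 4 and 79.2, 116 and 130 TPM in lisinopril 1 to 3. Melanoma 1 to 4 held 564, 501, 432 and 296 TPM, and melanoma plus lisinopril 1 to 4 held 793, 267, 276 and 1143 TPM. All 8 tumour-bearing libraries exceeded all 7 tumour-free ones, control 2 included; of all kept genes, 1.49% were separated in this direction and 0.839% in the other. Gpx3 was the 1 gene of the 10 for which this held. The average tumour effect was 1.94 ± 0.35, or 3.85-fold (adjusted p = 0.00435, limma), and 2.07 ± 0.35 without control 2. Without control 2, 6 of the 10 genes (Nfe2l2, Hmox1, Gclc, Gclm, Txnrd1 and Gpx3) were higher in 8 of 8 tumour-bearing libraries than in the 6 remaining tumour-free ones, against 9.23% of all kept genes, and Sod2 was lower in 8 of 8, against 1.93%.

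The average combines a tumour comparison in untreated mice with one in lisinopril-treated mice, which share no library. Between melanoma and control alone, 0 of the 10 genes passed the threshold, against 0.646% of all kept genes, and 3 of 10 had an unadjusted p under 0.05 (limma). Nfe2l2 differed by 0.69 ± 0.22 (adjusted p = 0.146), Hmox1 by 1.17 ± 0.56 (adjusted p = 0.275) and Gpx3 by 1.64 ± 0.48 (adjusted p = 0.116, limma). Gpx3 was the 1 gene whose groups did not overlap, a separation seen upwards in 5.33% and downwards in 2.89% of all kept genes. Without control 2, Nfe2l2 (0.85 ± 0.22, adjusted p = 0.0446) and Gpx3 (1.89 ± 0.50, adjusted p = 0.0466, limma) passed, against 4.95% of all kept genes (3.80% higher and 1.15% lower).

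Between melanoma plus lisinopril and lisinopril, Txnrd1 and Gpx3 rose, 2 of the 10 genes against 1.34% of all kept genes called higher (1.48% in either direction), and 7 of 10 had an unadjusted p under 0.05. Txnrd1 was higher by 1.18 ± 0.28, or 2.27-fold (adjusted p = 0.0492, limma), and Gpx3 by 2.25 ± 0.52, or 4.76-fold (adjusted p = 0.0477). Hmox1 differed by 2.23 ± 0.60 (adjusted p = 0.0725), Srxn1 by 1.47 ± 0.44 (adjusted p = 0.0972) and Nfe2l2 by 0.94 ± 0.24 (adjusted p = 0.0631, limma). The groups did not overlap for 7 of the 10 genes, all higher with the tumour (Nfe2l2, Hmox1, Gclc, Gclm, Txnrd1, Srxn1 and Gpx3), and for Sod2, lower with it. The background of such separation was high in this pair of small groups, at 29.0% of all kept genes upwards and 4.41% downwards.
The number of calls turned on single libraries. It was 0 on leaving out control 1 or 4, lisinopril 1, 2 or 3, melanoma 1, 3 or 4, or melanoma plus lisinopril 1, 2 or 4. It came to 3 when melanoma 2 was dropped, where 681 of all 11923 kept genes were called. With melanoma plus lisinopril 3 dropped it came to 5, where 385 of all kept genes were called. Dropping control 2 also gave 5 (Nfe2l2, Hmox1, Gclm, Txnrd1 and Gpx3), where 4.87% of all kept genes were called (4.40% higher). Over all 15 fits with 1 library left out, adjusted p ran from 0.00574 to 0.172 for Txnrd1 and from 0.0222 to 0.212 for Gpx3 (limma). Control and melanoma libraries are in neither group compared here. Dropping 1 of them left the fold changes of Txnrd1 (1.18) and Gpx3 (2.25) unchanged. Only the estimate of spread shared by all groups, and with it the p-values, moved in those fits.

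**Figure D2:**
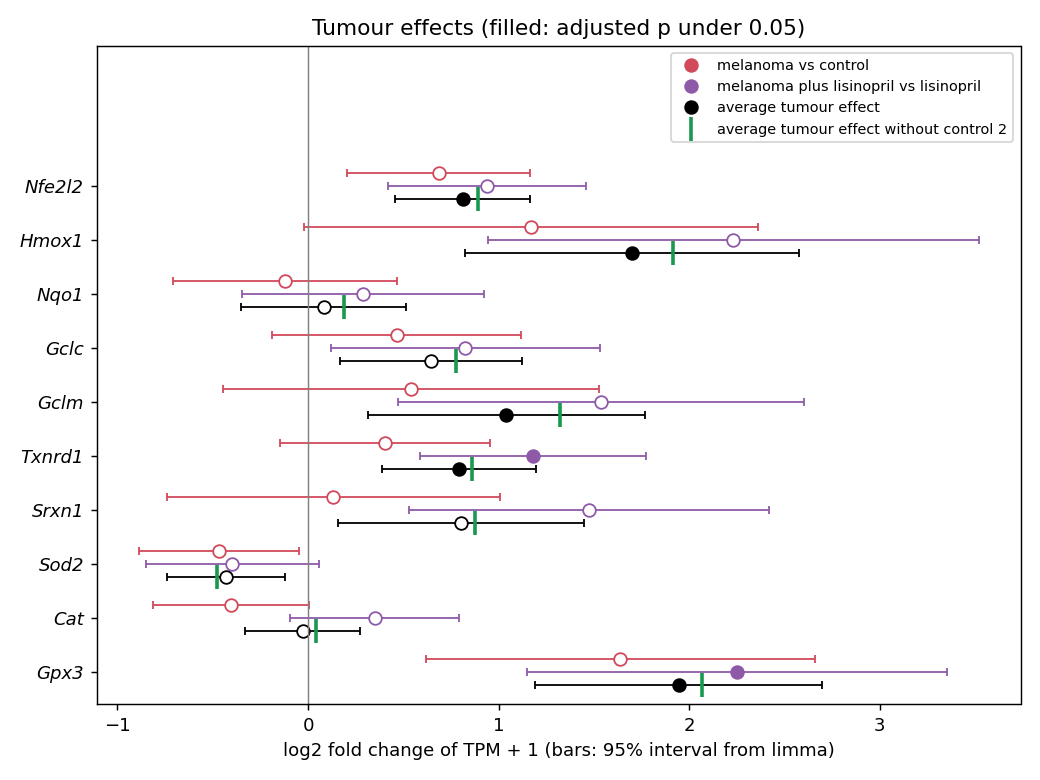
Log2 fold changes of TPM + 1 (horizontal axis) of the 10 genes for melanoma against control, melanoma plus lisinopril against lisinopril and their average, with 95% intervals from limma; filled points passed an adjusted p of 0.05 and green ticks give the average without control 2. The average intervals of Nfe2l2, Hmox1, Gclc, Gclm, Txnrd1, Srxn1 and Gpx3 lay above 0 and that of Sod2 below it, while those of Nqo1 and Cat spanned 0.

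Whether lisinopril changed the tumour effect was asked by the interaction term, the difference between the tumour effects with and without the drug. It passed for 0 of the 10 genes and for 0% of all kept genes (limma, adjusted p of 1.00 for each of the 10); 2 of the 10 genes and 151 of all genes had an unadjusted p under 0.05. Those 2 were Srxn1, with a term of 1.34 ± 0.60 (unadjusted p = 0.0423, adjusted p = 1.00, limma), and Cat, with a term of 0.75 ± 0.28 (unadjusted p = 0.0177, adjusted p = 1.00). For Cat the tumour difference was -0.41 ± 0.19 without the drug and 0.35 ± 0.21 with it. For Srxn1 it was 0.13 ± 0.41 without the drug and 1.47 ± 0.44 with it. The term was above 0 in all 10 genes, which share libraries and are not independent, and in 73.0% of all kept genes; its median was 0.68 over the 10 genes and 0.13 over all kept genes.

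Among tumour-bearing mice, lisinopril gave 0 of 10 calls, against 0% of all kept genes (limma; 2 of 10 and 189 of all genes had an unadjusted p under 0.05). Txnrd1 had the smaller p of the 2, with a difference of 0.78 ± 0.26 (unadjusted p = 0.00889, adjusted p = 1.00, limma), and Srxn1 differed by 1.22 ± 0.41 (unadjusted p = 0.00975, adjusted p = 1.00). In both, melanoma plus lisinopril 2 held the highest level and melanoma plus lisinopril 3 the lowest of its group, and the latter lay inside the melanoma range. Nfe2l2 differed by 0.07, with a 95% interval of -0.41 to 0.55, which leaves room for a change in either direction.
In tumour-free mice the drug likewise gave 0 of 10 calls, against 0% of all kept genes (limma; 1 of 10 and 461 of all genes at an unadjusted p under 0.05). The 1 gene was Cat, at -0.49 ± 0.21 (unadjusted p = 0.0339, adjusted p = 0.714, limma). The 3 lisinopril libraries held 61.7 to 69.2 TPM of Cat. Of these, 2 lay just below the control range of 63.4 to 123 TPM and 1 lay inside it, near its lower end. For 0 of the 10 genes were the lisinopril and control groups separate, against 0.218% of all kept genes higher and 4.13% lower. Averaged over both arms, the drug gave 0 of 10 calls and 0% of all kept genes, with 0 of the 10 and 631 of all genes at an unadjusted p under 0.05 (limma).

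The genes varied together in a few libraries. Control 2 had the highest level of its group for 9 of the 10 genes and the lowest for Sod2. Control 3 was lowest of its group for 9 and highest for Sod2, and it also had the highest mitochondrial share of all libraries (52.8% of TPM, which sum to a fixed total). Melanoma plus lisinopril 4 was highest of its group for Nfe2l2, Hmox1, Gclc, Gclm and Gpx3, with Hmox1 3.37 log2 units and Gpx3 3.19 log2 units above the tumour-free mean. That library also had the lowest mitochondrial share of all (28.5%), and its summed level of 4 slow-fibre markers was 264 TPM, against a group median of 20.5 TPM and at most 68.3 TPM in the other groups. The part of these traits in the values of the 10 genes was not tested. Melanoma plus lisinopril 2 led instead for Txnrd1 (1.85 log2 units above) and Srxn1 (2.76 log2 units above). Melanoma plus lisinopril 3 was lowest of its group for Nfe2l2, Hmox1, Gclc, Gclm, Txnrd1 and Srxn1.

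**Figure D3:**
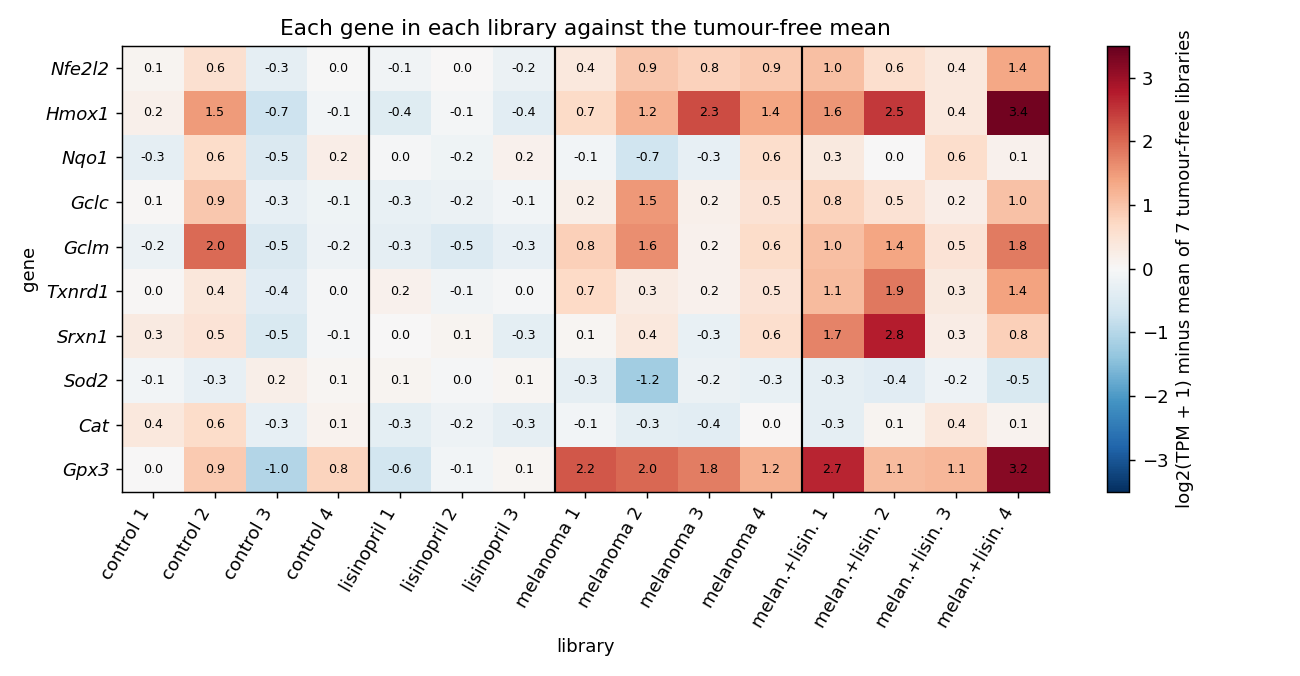
Level of each gene (vertical axis) in each of the 15 libraries (horizontal axis), as log2(TPM + 1) minus the mean of the 7 tumour-free libraries; red is above and blue below that mean. Control 2 stands out among the tumour-free libraries with Gclm at 1.97 and Hmox1 at 1.49, and melanoma 2 has Gclc at 1.52 beside Sod2 at -1.22.

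Beyond these genes, 143 others were listed for the same pathways, again with earlier results of these data known, and 126 were kept. Of these, 29 passed the threshold for the average tumour effect, 22 higher and 7 lower (23.0%, against 18.0% of all kept genes). That split depended on the scaling: rescaling by median ratios gave 13 higher and 14 lower, and quantile normalization gave 15 higher and 15 lower. All kept genes together had a median change of 0.17, against -0.0039 after rescaling by median ratios and 0.00073 after quantile normalization. Leaving out single libraries moved the count of 29 to 45 (without control 2), 19 (without control 1, control 4 or melanoma plus lisinopril 4), 17 (without lisinopril 2) and 15 (without lisinopril 1). Of the 29 genes 12 were called in every alternative in which they were tested, which was 22 of 23 for Ggt5, Gsta3 and Cd163 (the stricter filter removed them). None of the 29 changed sign in the alternatives run for it.

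Of 12 kept regulators and partners of NRF2, 5 rose and 0 fell, against 14.5% and 3.45% of all kept genes. Their median was 0.52, against 0.17 over all kept genes. Bach1, the competing repressor, rose by 1.11 ± 0.24 (2.16-fold, adjusted p = 0.00998, limma) from a median of 10.5 TPM in tumour-free muscle. Sqstm1, the autophagy adaptor p62 that can sequester KEAP1, rose by 0.96 ± 0.23 (1.94-fold, adjusted p = 0.0172). Without control 2, both were higher in 8 of 8 tumour-bearing libraries than in every tumour-free one, against 9.23% of all kept genes. Bach2 (0.60 ± 0.20), the ligase scaffold Cul3 (0.47 ± 0.14) and the small MAF partner Mafg (0.46 ± 0.15) also rose, though those calls were lost in 14, 12 and 15 alternatives. Keap1 differed by 0.49 ± 0.19 (adjusted p = 0.0798, limma) and stayed outside the threshold in 21 of 23 alternatives (adjusted p down to 0.0443).

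Of 18 kept genes of glutathione synthesis and use, 4 rose and 2 fell, with a median of 0.10. Of all kept genes 14.5% rose and 3.45% fell, with a median of 0.17. The 4 include Gclm and Gpx3, and Ggt5, a gamma-glutamyl transferase family member, rose by 0.91 ± 0.14 (adjusted p = 0.00214, limma). Glrx3 (0.44 ± 0.13) also rose. Chac2, which degrades glutathione, fell by 0.56 and Glrx5, a mitochondrial glutaredoxin of iron-sulfur cluster assembly, fell by 0.31 on the log2 scale. The Glrx3 call was lost in 13 of 23 alternatives (adjusted p up to 0.113, limma), the Chac2 call in 7 and the Glrx5 call in 1. Glutathione reductase, Gsr, differed by 0.35 ± 0.12 (adjusted p = 0.0621, limma) and stayed outside the threshold in 20 of 23 alternatives (adjusted p down to 0.0315). The cystine transporter Slc7a11, a well-known NRF2 target, was at no more than 0.147 TPM in any library and was not tested. Gpx1 (-0.17 ± 0.26) and Gpx4 (0.29 ± 0.14) did not pass, and the sign of Gpx1 turned without control 2.

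Of 17 kept thioredoxins, peroxiredoxins and methionine sulfoxide reductases, 1 rose (Txnrd1) and 2 fell, against 14.5% and 3.45% of all kept genes, with a median of -0.07. Both that fell repair oxidised methionine: Msra fell by 0.55 (adjusted p = 0.0107, limma) and Msrb2, a mitochondrial form, fell by 0.74 on the log2 scale (adjusted p = 0.00211). Msrb2 was lower in 8 of 8 tumour-bearing libraries than in all 7 tumour-free ones, against 0.839% of all kept genes. Msrb2 fell in melanoma against control as well (by 0.78 on the log2 scale, adjusted p = 0.0397, limma). Txn1 (0.17 ± 0.15), Prdx1 (0.14 ± 0.10) and Txnip (0.01 ± 0.22) did not pass, and the sign of each turned under both of those scalings. Of 5 kept genes for superoxide dismutases, their chaperone and catalase, Sod1 (0.48 ± 0.16) and the extracellular Sod3 (0.80 ± 0.22) rose and 0 fell. Their median was 0.05, and the shares over all kept genes were again 14.5% and 3.45%. The Sod1 call was lost in 15 of 23 alternatives and the Sod3 call in 3 of 22.

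Of 29 kept genes of electrophile conjugation, reduction and export, 7 rose and 1 fell, against 14.5% and 3.45% of all kept genes. Their median was 0.08, against 0.17 over all kept genes. The glutathione transferases Gsta3 (1.13 ± 0.28), Mgst1 (0.82 ± 0.22), Mgst3 (0.81 ± 0.18), Gstm1 (0.53 ± 0.17) and Gstm5 (0.46 ± 0.11) rose, as did the exporter Abcc4 (0.77 ± 0.24) and the aldehyde oxidase Aox1 (0.48 ± 0.16). Nqo2, the quinone reductase related to Nqo1, fell by 0.44 on the log2 scale. Of 23 alternatives, the calls of Gstm1 and Aox1 were lost in 17 each, that of Abcc4 in 9, those of Mgst1 and Gstm5 in 3 each and that of Nqo2 in 1. Gsta and Gstm genes belong to families of close copies, so their values are uncertain where reads could be shared.

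Of 16 kept genes of haem breakdown and iron handling, 3 rose (Hmox1, Cd163 and Lrp1) and 2 fell, against 14.5% and 3.45% of all kept genes. Their median of 0.16 was near the 0.17 of all kept genes. Tfrc, the transferrin receptor that imports iron, fell by 2.45 on the log2 scale (SE 0.43, adjusted p = 0.00385, limma), from a tumour-free median of 112 TPM to a tumour-bearing median of 14.4 TPM. Alas1, the first enzyme of haem synthesis, fell by 0.87. Cd163, the haemoglobin scavenger receptor of macrophages, rose by 1.92 ± 0.26, and Lrp1, the receptor for haem bound to haemopexin, rose by 0.84 ± 0.22. The Alas1 and Lrp1 calls were each lost in 1 of 23 alternatives. The ferritin subunits Fth1 (0.43 ± 0.16, adjusted p = 0.0705, limma) and Ftl1 (0.61 ± 0.25, adjusted p = 0.0937) did not pass, and both have many processed copies in the genome. They stayed outside the threshold in 22 and 21 of 23 alternatives, with adjusted p down to 0.0471 and 0.0126 (limma). Blvrb (-0.12 ± 0.30), which reduces biliverdin, did not pass, and its sign turned without control 2.

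The metallothioneins, small thiol-rich proteins that bind zinc and copper and scavenge radicals, had the largest fold changes of the listed genes that passed. Mt1 rose by 2.93 ± 0.44 (7.62-fold, adjusted p = 0.00169, limma) and Mt2 by 3.35 ± 0.47 (10.2-fold, adjusted p = 0.00111). Both were higher in 8 of 8 tumour-bearing libraries than in all 7 tumour-free ones, against 1.49% of all kept genes. The tumour-free range of Mt1 was 106 to 415 TPM and the tumour-bearing range 496 to 4222 TPM. Of the 7 other genes in that list, all selenoproteins, 0 passed, against 18.0% of all kept genes. Among 10 genes of NADPH supply, which feeds both glutathione and thioredoxin reductases, 0 passed as well: G6pdx differed by 0.43 ± 0.26 and Me1 by 0.31 ± 0.18. G6pdx stayed outside the threshold in 20 of 22 alternatives, with adjusted p down to 0.00378 (limma), and Me1 in 23 of 23.

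**Figure D4:**
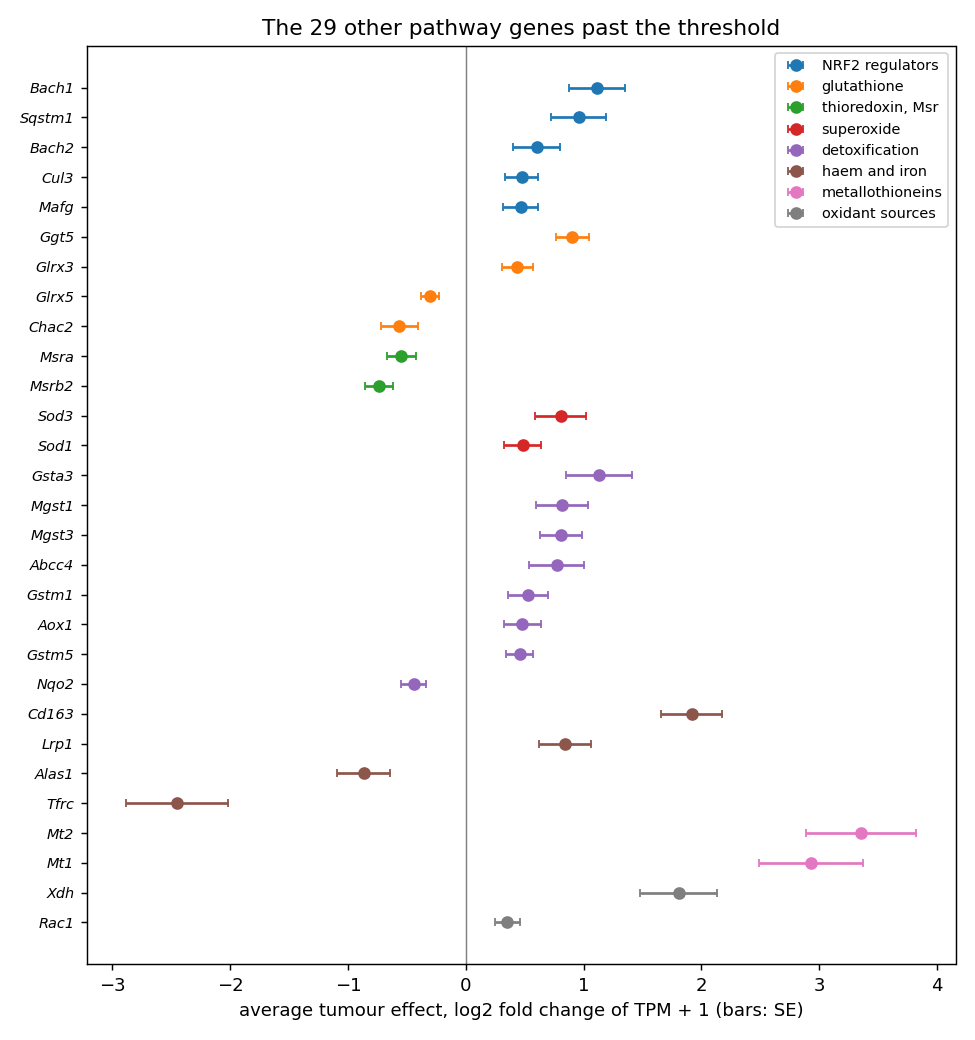
Average tumour effect (log2 fold change of TPM + 1, horizontal axis; points with SE bars) of the 29 listed genes besides the 10 that passed an adjusted p of 0.05 in limma, coloured by pathway. Mt1 and Mt2 lie at 2.93 and 3.35, and Tfrc lies farthest below 0 at -2.45.

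Markers of several cell types differed between tumour-bearing and tumour-free muscle, in both directions. The summed level of 8 neutrophil markers was 22.4 to 100 TPM in control, 10.7 to 60.3 TPM in lisinopril, 108 to 365 TPM in melanoma and 34.7 to 193 TPM in melanoma plus lisinopril. Of them 8 of 8 rose, against 14.5% of all kept genes, and none was at 0 in any library. Several came near it: the lowest levels of Il1r2, Mmp8, Mmp9 and Cxcr2 were 0.0781, 0.122, 0.168 and 0.244 TPM. The summed level of 10 macrophage markers, whose cells express Hmox1 strongly, was 104 to 520 TPM in control, 77.0 to 222 TPM in lisinopril, 179 to 429 TPM in melanoma and 153 to 287 TPM in melanoma plus lisinopril. Of those 10, Cd163 and Mrc1 (1.02 ± 0.25) rose, against 14.5% of all kept genes, 8 did not pass and none was at 0 in any library. Of the 8, Adgre1 (-0.09 ± 0.28) and Ms4a7 (-0.38 ± 0.29) lay below 0 and the rest above it. Control 2 held the highest macrophage sum of all, as it held the highest tumour-free level of 9 of the 10 genes. Red cell markers ranged from 160 to 24008 TPM, highest in control 2, and lowest in melanoma 2 and melanoma plus lisinopril 4. Adipocyte markers, whose cells also express Gpx3, summed to 1.09 to 52.1 TPM, again highest in control 2. Lymphocyte markers summed to 39.2 to 183 TPM in control and 33.7 to 229 TPM in lisinopril. In melanoma they summed to 2.95 to 11.15 TPM and in melanoma plus lisinopril to 2.73 to 21.3 TPM. Of the 9 lymphocyte markers 2 were kept for testing, Ighm and Igkc. Ighm fell by 3.58 on the log2 scale (SE 0.44, adjusted p = 0.000597, limma), and Igkc did not pass (adjusted p = 0.0516). Cd3e, Cd3d, Cd8a and Cd4 reached at most 0.439, 0.477, 0.104 and 0.518 TPM in any library, so they added little to the sums. The endothelial marker Tek rose and Kdr fell, the fibroblast markers Dcn and Pdgfra rose, and the other markers of those 2 cell types did not pass. The part of any of these cells in the values of the 10 genes was not tested.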

How the data were processed

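Poly(A) RNA of 15 tibialis anterior samples was sequenced on a NovaSeq instrument from stranded TruSeq libraries, per the labels. The authors deposited a table of TPM per gene symbol, on the mm10 build, as the submitters' processing notes name it. For the aligner, counter, strand setting and annotation, a name is not given in the sources used here. Every column summed to 1000000, so depth is unknown.

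Groups came from the labels. TPM were transformed to log2(TPM + 1), genes with at least 1 TPM in at least 3 of 15 libraries were kept (11923), and limma 3.58.1 (R 4.3.3) fitted 4 group means with eBayes and trend, with 11 residual and 3.80 prior degrees of freedom. Tests were two-sided, adjusted by Benjamini-Hochberg over all kept genes within each of 7 contrasts, with a threshold of 0.05; p-values reflect the spread between these libraries. The script was tested on simulated data. Errors of fold changes are SE.

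The members and lists were chosen with earlier results of these data known. All 10 members were named; from each other list up to 6 genes in each direction, by size, that passed in the average tumour effect, up to 4 that passed in a single comparison, and a panel of pathway genes whatever their result. Of the listed selenoproteins, 7 were matched through older symbols. Promoters came from RefSeq and gene positions from GENCODE M21 (both GRCm38).

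Other settings tried were quantile normalization, rescaling by median ratios or without mitochondrial genes, a pseudocount of 0.1, a filter at a mean of 5 TPM or none, a replicate block, both atypical libraries left out, only the 2 groups compared, and each library left out in turn.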

Additional observations from a re-analysis of the deposited data

Results flagged for a closer look

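A single library stood far from the rest of its group for 2 of the 10 genes. Gclm measured 19.5 TPM in control 2, against 2.65 to 3.64 TPM in the other controls, and the gap took up 0.861 of the whole range, above Dixon's 95% critical value for 4 samples. Sod2 measured 93.5 TPM in melanoma 2, against 177 to 190 TPM in the other melanoma libraries, with a gap of 0.901 of the range. In all, 30 groups of 4 were examined in this way, and chance alone flags about 5% of such groups; the lisinopril group of 3 was not examined. Without control 2 the average tumour effect of Gclm was 1.32 in place of 1.04 on the log2 scale. Without melanoma 2 that of Sod2 was -0.31, in place of -0.43.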

How the results depend on the processing

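Of 828 recomputed fold changes of the 10 genes, 732 kept their direction and side of the threshold. A call was lost in 43 and gained in 37, and the sign changed in 16. Of 165 recomputed counts of members called, 143 were within 1.5 times the first value. Most of these 143 were 0 both times, and in the interaction and drug comparisons no gene at all was called. The 22 counts that moved lay mostly in melanoma plus lisinopril against lisinopril. For the average tumour effect Nfe2l2, Hmox1, Txnrd1 and Gpx3 passed in all 23 alternatives. The count of members called there was 5, and 8 with a replicate block, and ran from 4 to 8 with 1 library left out (8 without control 2). Of all 11923 kept genes, 2141 were called in the main fit, 2172 with the block and 3959 without control 2. For melanoma against control the count of members was 0 and ran from 0 to 2 (2 without control 2, with 590 of all kept genes called). For melanoma plus lisinopril against lisinopril it was 2, with 177 of all kept genes called. It was 0 with no filter (14 of 21659 genes). It was 1 each after quantile normalization (174 of 11923 genes), median-ratio rescaling (175) and removal of mitochondrial genes (230 of 11910). With only the groups compared it was 6 (876 of 11923), and with control 2 and melanoma 2 left out together it was 8 (1914). With 1 library left out it ran from 0 to 5, and the calls over all kept genes from 5 to 681. Leaving out control or melanoma libraries kept the fold changes of this comparison and moved only the shared estimate of spread. The causes were not tested further. The interaction and the drug comparisons gave 0 in every alternative run.

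Replicate numbers gave no clear pairing of the libraries. The deviations of 21 same-numbered pairs correlated with a median of 0.083 (-0.15 to 0.36), against -0.035 for 63 pairs with different numbers. Of the 21 pairs 9 exceeded 0.1, and 4 of 15 libraries correlated best with their own number. Whether same-numbered libraries share a batch cannot be told from these values. With the replicate block, Gclc (adjusted p = 0.0467), Srxn1 (adjusted p = 0.0323) and Sod2 (adjusted p = 0.0369) passed for the average tumour effect, and Gpx3 missed for melanoma plus lisinopril against lisinopril (adjusted p = 0.0514, limma), where Srxn1 passed.

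Counts over all genes moved by more than 1.5 times. For melanoma against control, 77 calls became 30 under the stricter filter, 40 with none, 163 after median-ratio rescaling, 359 after quantile normalization, 130 without mitochondrial genes, 120 with the replicate block, 257 with both atypical libraries left out, 5 with only the groups compared, and 17 (without control 3) to 590 (without control 2) with 1 left out. For melanoma plus lisinopril against lisinopril, 177 became 14 with no filter, 356 with the block, 1914 with both left out, 876 with only the groups compared, and 5 (without lisinopril 1) to 681 (without melanoma 2). For the average, 2141 became 1337 with no filter, 3676 with both left out, and 743 (without lisinopril 1) to 3959 (without control 2).

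Signs turned for genes near 0. For melanoma against control, Nqo1 (-0.12) was 0.28 with both atypical libraries left out and ran from -0.37 (without melanoma 4) to 0.089 (without control 2) with 1 library left out, and was 0.068 without melanoma 2. Srxn1 (0.13) was -0.0040 and -0.0097 after median-ratio rescaling and after quantile normalization, -0.0018 without melanoma 4, and ran from -0.065 (without control 3) to 0.28 with 1 library left out. For the average tumour effect, median-ratio rescaling and quantile normalization gave -0.12 and -0.11 for Nqo1, -0.041 and -0.045 for Txn1, -0.20 and -0.22 for Txnip, and -0.073 and -0.097 for Prdx1. Without mitochondrial genes Nqo1 was -0.045 and Txnip -0.12, and with the replicate block Txnip was -0.0011. With both atypical libraries left out, Cat was 0.068, Gpx1 0.11, Txnip -0.14, Blvrb 0.20 and Cybb 0.017. With 1 library left out, Nqo1 ran from -0.040 to 0.19, Cat from -0.11 to 0.044, Gpx1 from -0.35 to 0.049, Txnip from -0.13 to 0.15, and Blvrb from -0.29 to 0.16. The depth behind each value is unknown, which limits what low-TPM genes such as Gclm can show.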

Other observations

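Genes on the producing side of oxidants were listed as well. Of 11 kept sources of reactive oxygen species 2 rose and 0 fell for the average tumour effect, against 14.5% and 3.45% of all kept genes. Their median log2 fold change was 0.35, against 0.17 over all kept genes. Xdh, the xanthine dehydrogenase that in its oxidase form gives superoxide and peroxide from purines, rose by 1.81 ± 0.32 (3.50-fold, adjusted p = 0.00413, limma). It measured 22.7 to 81.2 TPM in the 8 tumour-bearing libraries and 5.61 to 28.4 TPM in the 7 tumour-free ones, where control 2 was highest, and 5 of the 8 exceeded control 2. Rac1, a small GTPase that activates NADPH oxidases, rose by 0.35 ± 0.10, a call that was lost in 11 of 23 alternatives (down to 0.14, adjusted p up to 0.161, limma). Cybb, the catalytic subunit of the phagocyte NADPH oxidase, differed by -0.30 ± 0.34, and Nox4 by 0.59 ± 0.22 (adjusted p = 0.0662, limma); neither passed. Of 8 kept sestrins, uncoupling proteins and related brakes on oxidants, 0 passed, against 18.0% of all kept genes. Sesn1 had the largest difference of the 8, at 1.18 ± 0.51 (adjusted p = 0.109, limma).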
